A study of Mus musculus with 23 samples.

Results

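Wild type cerebellum was compared with wild type cortex across all mature miRNAs of a small RNA sequencing study of C57BL/6 mouse brain. The comparison used 6 of the 23 libraries of the study, namely 3 of wild type cerebellum and 3 of wild type cortex. They were chosen by genotype and dissected region, with earlier results of these data known. The whole study has knockout mice of the circular RNA locus Cdr1as and wild type mice in 4 regions, the other regions being hippocampus and olfactory bulb. Mice of both groups compared here carried no knockout, and the labels give neither their age nor their sex, nor whether libraries of a group came from separate animals. P-values therefore measure the spread between these samples, which may be technical. Of 1915 miRNA names in the tables, 669 had enough reads to be tested, and each test took its estimate of spread from all 23 libraries. A miRNA was called higher or lower in cerebellum at a Benjamini-Hochberg adjusted p under 0.05 and a difference of at least 2-fold. Levels are given as counts-per-million on TMM-scaled library sizes (CPM), and differences are log2 of cerebellum over cortex with their standard error (SE).

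MiRNAs are short RNAs cut by Drosha and Dicer from hairpin precursors, and either arm of the hairpin, named 5p or 3p, can be loaded into Argonaute. Bases 2 to 8 of the loaded strand, the seed, pair with target mRNAs and repress them, so that miRNAs with a shared seed have overlapping targets. The cerebellum derives from the hindbrain and is dominated by small granule neurons, with Purkinje cells, Bergmann glia and white matter, whereas the cortex derives from the forebrain and holds glutamatergic pyramidal neurons and inhibitory interneurons. A dissected piece is a mixture of all its cells, and in such bulk samples fewer cells of a type and less RNA per cell cannot be told apart.

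The mature sequences below are those on which the differences turned, grouped by seed, with the seed in capitals. They are from RefSeq on the mouse build GRCm38.p6, written 5′ to 3′, and 562 of the 669 tested names matched an entry there. The first set shares a seed of which members on chromosome 11 were several-fold higher in cerebellum while a member on chromosome X was lower.
miR-195a-5p: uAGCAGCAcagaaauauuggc
miR-497a-5p: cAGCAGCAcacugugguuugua
miR-16-5p: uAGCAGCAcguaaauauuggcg
miR-15a-5p: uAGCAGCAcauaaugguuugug
miR-15b-5p: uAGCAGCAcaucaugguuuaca
miR-322-5p: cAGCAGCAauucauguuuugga
Next come the Hox-cluster pair, higher in cerebellum, and the miR-132/212 pair, lower in cerebellum, whose members moved together within each pair.
miR-10a-5p: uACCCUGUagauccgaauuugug
miR-10b-5p: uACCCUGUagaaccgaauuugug
miR-132-3p: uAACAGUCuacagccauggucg
miR-212-3p: uAACAGUCuccagucacggcca
A further pair of seeds is shown because miRNAs that carry the same one differed in opposite directions.
miR-28a-5p: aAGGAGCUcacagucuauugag
miR-708-5p: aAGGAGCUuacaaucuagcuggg
miR-125a-5p: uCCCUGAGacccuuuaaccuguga
miR-125b-5p: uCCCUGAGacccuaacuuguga
miR-351-5p: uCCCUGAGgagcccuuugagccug
The seed of miR-344d-3p, which was far lower in cerebellum, is also that of the imprinted miR-410-3p.
miR-344d-3p: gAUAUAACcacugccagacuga
miR-410-3p: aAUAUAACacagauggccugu
Last are 2 passenger arms that tell apart the precursors of the shared miR-7a-5p, and the arms of miR-127, whose ratio differed between the regions.
miR-7a-1-3p: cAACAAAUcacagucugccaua
miR-7a-2-3p: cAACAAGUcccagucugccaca
miR-127-5p: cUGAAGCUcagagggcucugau
miR-127-3p: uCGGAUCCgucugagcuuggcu

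Total counts were 7924290 to 11046151 in the 3 cerebellum libraries and 4774415 to 6830695 in the 3 cortex libraries, so the precision was somewhat better in cerebellum, and reads amplified by PCR without molecular identifiers are not independent molecules. Reads were more concentrated in cerebellum, where the 10 most abundant miRNAs held 63.7 ± 1.56% of counts, against 57.6 ± 0.606% in cortex (SD, n = 3 each). All 3 cerebellum libraries lay above all 3 cortex libraries, and the exact two-sided permutation p of 0.1 is the smallest that 3 against 3 can give. TMM factors ran from 0.757 to 0.938 in cerebellum and from 1.30 to 1.35 in cortex. Scaling therefore weighed on the split of the calls, as given below. Some names share reads, since miR-486a-5p and miR-486b-5p had equal counts in 23 of 23 libraries, as did let-7a-1-3p and let-7c-2-3p, and miR-101a-3p and miR-101c differed by at most 0.563%. Counts of miRNAs below keep every name, and with 1 name of each set of near-equal counts 121 of 650 were called higher in cerebellum and 144 lower.

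Marker miRNAs were set against the region labels. Both miR-10 members of the Hox clusters stood at more than 4-fold higher levels in cerebellum, as given below. Which part of the dissected tissue they came from was not tested. Neuron-enriched miRNAs summed to 159800 to 190200 CPM in cerebellum and 137800 to 140000 CPM in cortex, so both were rich in neuronal miRNAs. Which region has the higher sum rests on the TMM scale. The wild type cortex libraries stood apart in 1 respect. The miR-200 family and miR-183 cluster, which are typical of the olfactory bulb and of epithelial and sensory cells, summed to 551 to 1132 CPM in cerebellum and 143 to 446 CPM in cortex of knockout mice. In wild type mice the same sum was 876 to 1135 CPM in cerebellum and 3689 to 6823 CPM in cortex. The part of olfactory bulb RNA in the wild type cortex libraries was not tested, and the 12 calls in that list are given separately below.

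The 2 regions differed in a large share of their miRNAs. Of the 669 tested, 277 were called (41.4%), with 133 higher in cerebellum (19.9%) and 144 lower (21.5%) by the quasi-likelihood test of edgeR, adjusted by Benjamini-Hochberg. Without the 15 tested members of the miR-200 and miR-183 list, 133 of 654 were higher and 132 lower. At least 4-fold differences numbered 38 higher and 59 lower, at least 8-fold ones 12 and 26, and at least 16-fold ones 3 and 12. Among the 196 miRNAs with a mean of at least 100 CPM over the 6 libraries, 44 were higher and 38 lower. At an adjusted p alone, with no fold minimum, 208 were higher and 211 lower, 62.6% of those tested. The groups of 3 did not overlap for 472 of the 669 miRNAs (70.6%), so a lack of overlap alone singles out little in these libraries. For the 12 highest and 12 lowest differences named below, a lack of overlap was a condition of naming and adds no support. The split moved with the scaling: upper quartile factors gave 200 higher and 99 lower, with the median of all miRNAs at 0.40 on the log2 scale, while library size alone gave 51 and 259, with a median of -0.66, against a median of 0.02 with TMM factors. Directions given below for differences of less than about 1 on the log2 scale are relative to the TMM scale.

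**Figure D1:**
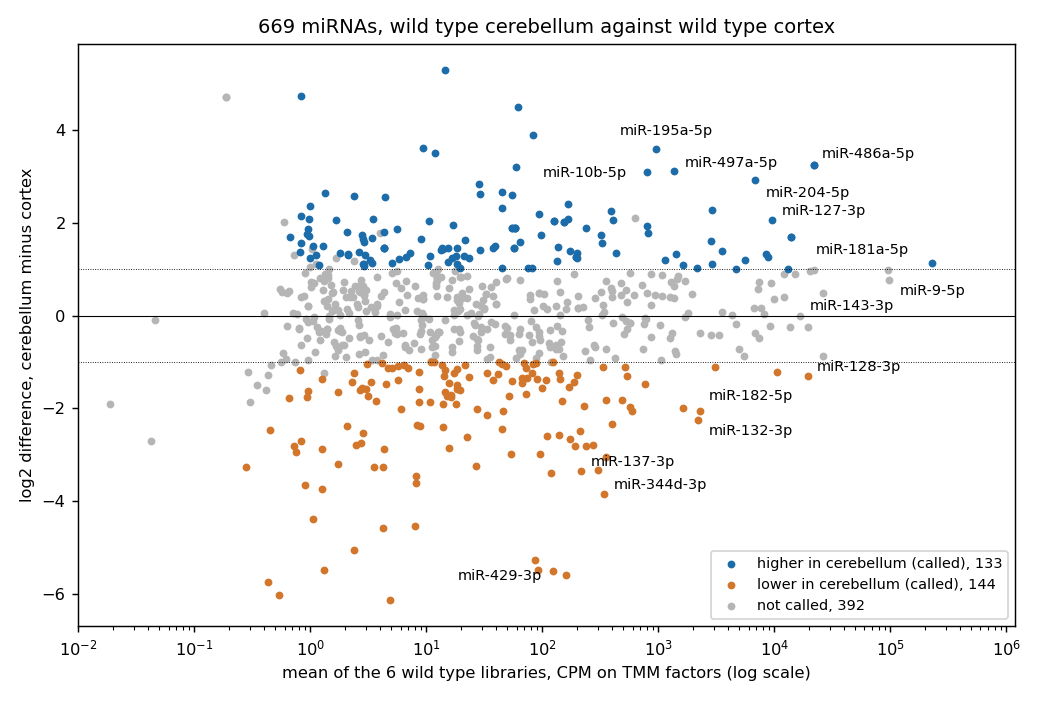
Log2 difference between wild type cerebellum and wild type cortex (y axis) against the mean CPM of the 6 libraries (x axis, log scale) for 669 miRNAs, with 133 called higher, 144 called lower and dotted lines at 2-fold. Calls lie at all levels from about 1 CPM to the most abundant miRNA, miR-181a-5p, and the lowest points among miRNAs near 100 CPM are members of the miR-200 family.

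Among the highest differences of well-expressed miRNAs were those of miR-195a-5p and miR-497a-5p, made from neighbouring precursors on chromosome 11 and known as restrainers of the cell cycle from the miR-15/16 family. MiR-195a-5p had 1539.7, 1937 and 1790.2 CPM in the 3 cerebellum libraries, against 161, 138 and 140.1 CPM in the 3 cortex libraries. No library of either region came near the other, and the log2 difference was 3.58 (SE 0.12, edgeR adjusted p = 4.64e-15), more than 8-fold higher in cerebellum. MiR-497a-5p had 2500.3, 2808 and 1976 CPM in cerebellum and 264, 225 and 349.7 CPM in cortex, a log2 difference of 3.12 (SE 0.22, edgeR adjusted p = 1.7e-10). Their less abundant 3p arms were higher as well, miR-195a-3p by 3.21 and miR-497a-3p by 5.28 on the log2 scale, so all 4 mature miRNAs of the precursor pair were called higher. In the other wild type regions miR-195a-5p averaged 184 CPM in hippocampus and 385 CPM in olfactory bulb, both nearer to cortex than to cerebellum.

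Hox-cluster miRNAs were higher in cerebellum in 3 of 3 tested members, against 19.9% higher over all miRNAs. MiR-10b-5p, from an intron shared by Hoxd3 and Hoxd4 transcripts, had 1276, 1234 and 1785 CPM in cerebellum, against 187, 152 and 162 CPM in cortex. Its lowest cerebellum library was well above its highest cortex library, at a log2 difference of 3.10 (SE 0.37, edgeR adjusted p = 3.82e-07). MiR-10a-5p, of the Hoxb cluster on chromosome 11, had 258, 233 and 357 CPM in cerebellum and 55.8, 54.01 and 49.6 CPM in cortex (2.41 on the log2 scale, SE 0.25, edgeR adjusted p = 3.7e-08). Both pairs of groups were separate, and replicate 3 was the highest cerebellum library for each. MiR-615-3p, from an intron of Hoxc5, was called higher at no more than 1.74 CPM in any of the 6 libraries. The other 8 listed names, among them miR-196a and miR-196b, which mark more posterior tissue, did not have enough reads to be tested, and 4 of them had no read in any of the 6 libraries.

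Choroid plexus and ciliated epithelium miRNAs were called higher in 8 of 16 tested members and lower in 1, against 19.9% higher and 21.5% lower over all miRNAs. The 8 include arms of the neighbouring miR-34b and miR-34c precursors, which are not independent. MiR-204-5p, made from an intron of Trpm3 and abundant in choroid plexus and pigment epithelium, had 11170.0, 14513 and 10238 CPM in cerebellum, against 1832, 1698 and 1240.0 CPM in cortex. The groups were far apart, with a log2 difference of 2.91 (SE 0.30, edgeR adjusted p = 4.32e-08). Its paralogue miR-211-5p, from an intron of Trpm1 and with the same seed, had 47.1, 52.9 and 49.5 CPM in cerebellum and 5.65, 8.76 and 6.36 CPM in cortex, a difference of 2.83 (SE 0.31, edgeR adjusted p = 1.15e-07). Members of the list did not follow each other from library to library. MiR-1298-5p, from an intron of Htr2c, the serotonin receptor gene of choroid plexus, had 1310.2, 1706 and 27.7 CPM in cerebellum and 309, 248 and 151 CPM in cortex. Cerebellum replicate 3 lay below all cortex libraries, and the miRNA was not called (2.10, SE 0.92, edgeR adjusted p = 0.0527). Without that library its difference was 2.67, with an adjusted p of 0.00331 by edgeR. MiR-448-3p, from the same host gene, had 209, 248 and 4.48 CPM in cerebellum and 39.9, 35.5 and 25.9 CPM in cortex, with the same library low. It was called at 2.19 (SE 0.90, edgeR adjusted p = 0.0405), but not in 5 of the 6 fits that left out 1 of these libraries, with adjusted p of 0.074 to 0.145. MiR-34c-5p, of multiciliated cells, had 1905, 2073 and 795 CPM in cerebellum and 819.7, 624 and 637 CPM in cortex (1.20, SE 0.41, edgeR adjusted p = 0.0145). Without cerebellum replicate 1 its adjusted p was 0.0522 and without cerebellum replicate 2 it was 0.0687. Replicate 3 was thus low for miR-1298-5p, miR-448-3p and miR-34c-5p, but not for miR-204-5p relative to cortex or for miR-211-5p. With library size alone as the scaling, 3 of the 16 members were called higher and 1 lower, and with upper quartile factors 11 were higher and none lower.

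The names miR-486a-5p and miR-486b-5p, which are a single sequence counted under 2 names and known from red blood cells and muscle, had 31907, 41839 and 47008 CPM in cerebellum, against 3502, 5332 and 3846 CPM in cortex. The difference was 3.25 (SE 0.21, edgeR adjusted p = 3.18e-11), and the groups did not overlap. The defining miRNA of red blood cells, miR-451a, had 162, 199.8 and 177 CPM in cerebellum and 134, 179 and 126 CPM in cortex. Its groups overlapped and it was not called, with a log2 difference of 0.30 (SE 0.24, edgeR adjusted p = 0.285). MiR-144-3p, made from the same transcript as miR-451a, was not called either (0.37, SE 0.49). Of the 7 tested red blood cell names 4 were called higher, against 19.9% higher over all miRNAs. All 4 were thus of miR-486, and the rest lay between 0.27 and 0.37 on the log2 scale. Of 4 tested muscle-type names 2 were higher and 1 was lower, against 19.9% higher and 21.5% lower over all miRNAs. The lower one was miR-208b-3p (-1.63, SE 0.48), which had at most 2.02 CPM in any of the 6 libraries. The higher ones were miR-133b-3p and miR-133a-3p, both abundant in muscle. For miR-133b-3p the cerebellum libraries had 139, 162 and 163 CPM, against 8.76, 10.6 and 11.8 CPM in cortex (3.90, SE 0.21, edgeR adjusted p = 4.85e-12). MiR-133a-3p had 369.9, 377 and 368 CPM in cerebellum and 90.7, 106 and 105 CPM in cortex, a difference of 1.89 (SE 0.14, edgeR adjusted p = 4.56e-10).

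Of the other miRNAs with the highest differences, miR-192-5p and miR-194-5p are best known from liver, kidney and gut, where they come from shared transcripts. MiR-192-5p had 3918, 4823 and 5678 CPM in cerebellum and 984, 1031 and 962 CPM in cortex, a log2 difference of 2.28 (SE 0.15, edgeR adjusted p = 5.49e-11). MiR-194-5p had 593, 706 and 654 CPM in cerebellum and 119, 128 and 164 CPM in cortex, a difference of 2.25 (SE 0.14, edgeR adjusted p = 3.18e-11). That neither overlapped between the regions was a condition of naming. MiR-34a-5p, which p53 induces, had 245, 270.3 and 298 CPM in cerebellum and 55.7, 74.8 and 59.99 CPM in cortex (2.09, SE 0.17, edgeR adjusted p = 1.94e-09). Hippocampus and olfactory bulb averaged 37.1 and 23.1 CPM of it, below cortex. MiR-484 had 599, 707 and 671 CPM in cerebellum and 138, 173 and 162 CPM in cortex, a difference of 2.06 (SE 0.12, edgeR adjusted p = 1.52e-11). MiR-127-3p, from the maternally expressed transcript antisense to Rtl1, had 14308, 14418 and 17769 CPM in cerebellum and 3271, 3600.1 and 4311 CPM in cortex (2.06, SE 0.14, edgeR adjusted p = 9.47e-11). Wild type hippocampus averaged 17852 CPM of miR-127-3p, so the low level was not general to the forebrain regions sampled. Below the level at which miRNAs were named, and picked out after their values were seen, miR-217-5p and miR-216a-5p stood out. They come from a shared stretch of chromosome 11 and are best known from the exocrine pancreas. MiR-217-5p had 98.9, 127 and 126 CPM in cerebellum and 5.79, 3.14 and 6.82 CPM in cortex (4.50, SE 0.30, edgeR adjusted p = 8.21e-11). MiR-216a-5p had 17.4, 17.96 and 16.5 CPM in cerebellum and 1.55, 1.12 and 1.55 CPM in cortex, a difference of 3.62 (SE 0.32, edgeR adjusted p = 5.52e-09). Hippocampus and olfactory bulb averaged 0.842 and 1.23 CPM of miR-217-5p.

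**Figure D2:**
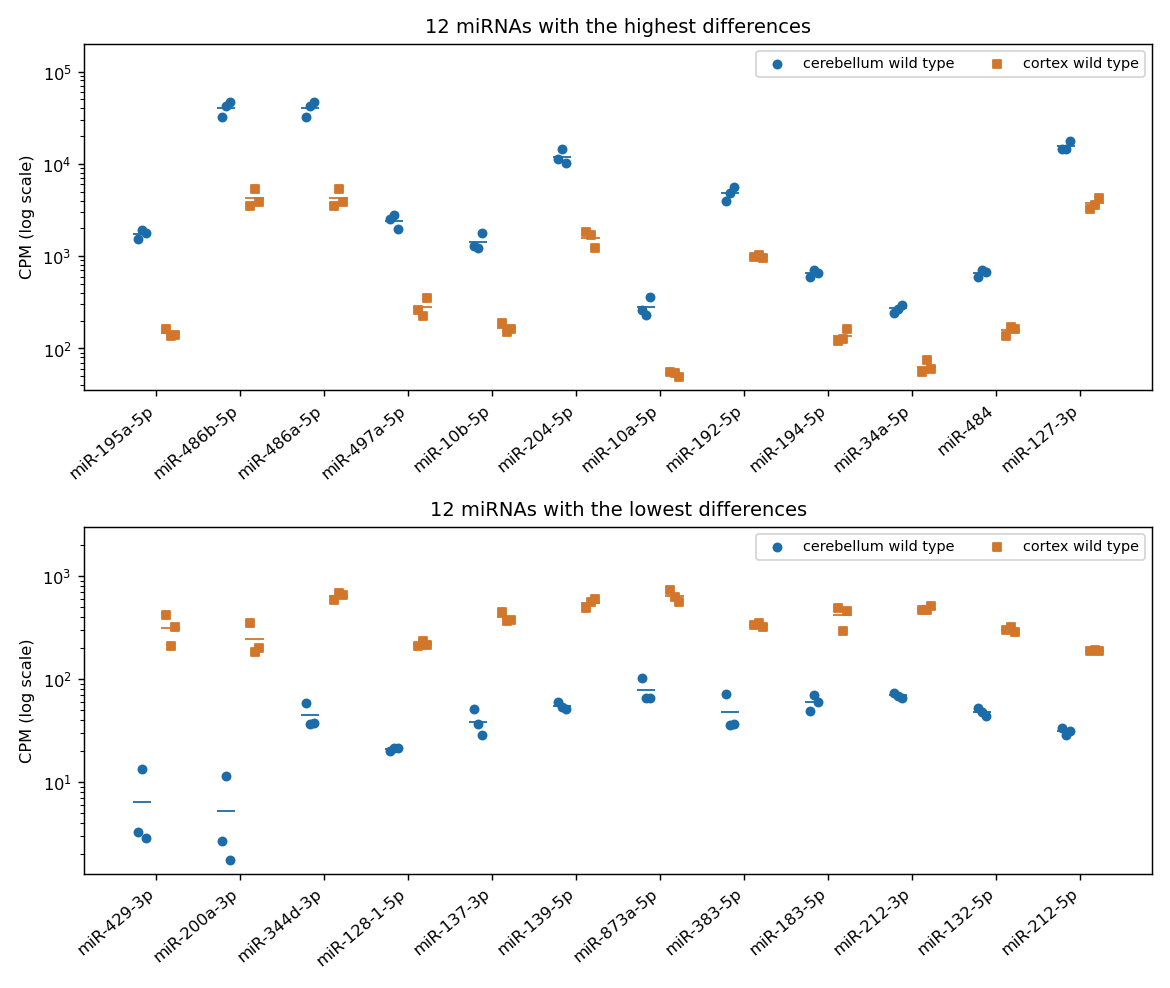
CPM (y axes, log scale) in each of 3 wild type cerebellum libraries (circles) and 3 wild type cortex libraries (squares) for the 12 miRNAs with the highest and the 12 with the lowest log2 difference among called miRNAs with a mean of at least 100 CPM and no overlap, with lines at the group means. MiR-486a-5p and miR-486b-5p share reads, and the cerebellum libraries of miR-429-3p and miR-200a-3p spread more than those of the other miRNAs.

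The miR-132/212 cluster, which CREB induces in active neurons and which promotes growth of dendrites, was lower in cerebellum in all 4 of its mature miRNAs. MiR-132-3p, the most abundant of them, had 812, 776 and 695 CPM in cerebellum, against 3309, 3978 and 3629.6 CPM in cortex. All cerebellum libraries lay below all cortex libraries, at a log2 difference of -2.26 (SE 0.18, edgeR adjusted p = 1.11e-09). MiR-212-3p, which has the same seed, had 73.2, 68.1 and 65.8 CPM in cerebellum and 465, 469.7 and 504 CPM in cortex (-2.80, SE 0.19, edgeR adjusted p = 1.18e-10). The other arms, miR-132-5p and miR-212-5p, differed by -2.66 and -2.59 on the log2 scale. Of the 11 activity-regulated names tested, 6 were lower and none higher, against 21.5% lower over all miRNAs. The 6 include the 4 arms of miR-132 and miR-212, which share a cluster and are not independent. The remaining 2 calls were miR-135a-1-3p, at no more than 1.41 CPM, and miR-134-3p. The abundant arms of miR-134 and miR-135a, which also act at synapses, were not called, with miR-134-5p at -0.40 and miR-135a-5p at -0.21. For comparison, wild type hippocampus averaged 1521 CPM of miR-132-3p and olfactory bulb 3871 CPM.

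Of 24 tested neuron-enriched miRNAs 12 were lower and 3 higher, against 21.5% lower and 19.9% higher over all miRNAs. Among the lower ones, miR-137-3p, a regulator of neuronal maturation, had 50.5, 36.5 and 28.6 CPM in cerebellum and 449, 361 and 376 CPM in cortex. That is a difference of -3.36 (SE 0.19, edgeR adjusted p = 5.96e-12) with no overlap. MiR-128-3p, which dampens the excitability of neurons, had 10922, 11868 and 10808 CPM in cerebellum and 26610.5, 29075 and 27519.8 CPM in cortex (-1.31, SE 0.11, edgeR adjusted p = 2.58e-09), and with upper quartile factors it fell short of 2-fold at -0.93. It is made from precursors in introns of R3hdm1 on chromosome 1 and of Arpp21 on chromosome 9. The 5p arm of the first alone, miR-128-1-5p, had 20.1, 21.2 and 21.5 CPM in cerebellum and 207, 235 and 214 CPM in cortex, a wider difference of -3.38 (SE 0.16, edgeR adjusted p = 7.57e-13). MiR-383-5p had 70.5, 35.5 and 36.6 CPM in cerebellum and 336, 348 and 320.0 CPM in cortex (-2.82, SE 0.26, edgeR adjusted p = 9.24e-09). MiR-138-5p, a regulator of spine size, had 7115, 6691 and 5280.5 CPM in cerebellum and 15730.5, 12119 and 16814 CPM in cortex, a difference of -1.23 (SE 0.25, edgeR adjusted p = 0.000242), and likewise fell short, at -0.86, with upper quartile factors. The 3 called higher were miR-598-3p, miR-598-5p and miR-129-1-3p, at 1.92, 1.69 and 1.36. Of these, miR-598-5p is the other arm of miR-598-3p and had at most 10 counts in any of the 6 libraries. MiR-9-5p and miR-124-3p, the most abundant of the list over the mean of the 6 libraries, were not called. MiR-124-3p had 22612, 27343 and 30539.9 CPM in cerebellum and 13588, 13289.6 and 14601 CPM in cortex, just short of 2-fold at 0.96 (SE 0.11), and it passed 2-fold in the fit without cerebellum replicate 1, at 1.06. With upper quartile factors the list had 8 members higher and 8 lower, and with library size alone 1 higher and 14 lower.

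Other named miRNAs with low differences came from introns of Pde2a, Lingo2 and Tenm4. MiR-139-5p, from the phosphodiesterase gene Pde2a, had 60.2, 53.2 and 50.5 CPM in cerebellum and 492, 558 and 592 CPM in cortex. The cortex libraries were all several-fold above the cerebellum libraries, at -3.32 (SE 0.14, edgeR adjusted p = 8.97e-14). MiR-873a-5p, from Lingo2, had 102, 64.6 and 65.9 CPM in cerebellum and 729.7, 626 and 559 CPM in cortex, a difference of -3.04 (SE 0.22, edgeR adjusted p = 2.68e-10). MiR-708-5p, from the teneurin gene Tenm4, had 45.9, 38.97 and 36.2 CPM in cerebellum and 239, 255 and 226 CPM in cortex (-2.57, SE 0.14, edgeR adjusted p = 4.22e-12). The miR-344 family, made from a region of mouse chromosome 7, was lower in 6 of 7 tested members, against 21.5% lower over all miRNAs. MiR-344d-3p had 58.96, 36.6 and 37.7 CPM in cerebellum and 586, 685 and 649.6 CPM in cortex, a difference of more than 8-fold (-3.85, SE 0.21, edgeR adjusted p = 5.14e-12). Wild type hippocampus averaged 864 CPM of it. The 1 exception was miR-344-3p, with 421, 493 and 505 CPM in cerebellum and 329, 349.9 and 304 CPM in cortex, which was not called at 0.53 (SE 0.11) and turned to -0.16 with library size alone. The miR-221 and miR-222 cluster of chromosome X promotes growth by way of cell cycle inhibitors. Its 4 tested members were all lower, against 21.5% lower over all miRNAs. MiR-221-3p had 200.3, 233 and 258 CPM in cerebellum and 854, 884 and 972 CPM in cortex (-1.97, SE 0.12, edgeR adjusted p = 2.49e-11), and miR-222-3p differed by -2.06.

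The lowest differences of all named miRNAs were in the miR-200 family, keepers of epithelial identity that repress Zeb1 and Zeb2. MiR-429-3p had 3.23, 13.2 and 2.86 CPM in wild type cerebellum and 415, 210.2 and 319.8 CPM in wild type cortex, a log2 difference of -5.58 (SE 0.47, edgeR adjusted p = 2.45e-09). MiR-200a-3p had 2.69, 11.3 and 1.74 CPM in cerebellum and 348, 182 and 198 CPM in cortex (-5.50, SE 0.49, edgeR adjusted p = 5.29e-09). Cerebellum replicate 2 was the highest of its group for both, and cortex replicate 1 the highest of its group. For the sensory miRNA miR-183-5p, cerebellum libraries had 48.7, 69.1 and 59.8 CPM, against 491, 289 and 459.7 CPM in cortex (-2.80, SE 0.34, edgeR adjusted p = 3.68e-07). Of 15 tested members of the miR-200 and miR-183 list, 12 were lower and none higher, against 21.5% lower over all miRNAs. Wild type olfactory bulb averaged 16434 CPM of miR-429-3p and wild type hippocampus 27.97 CPM. Knockout cortex libraries had 14.8, 41.2 and 29.97 CPM of miR-429-3p.

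The most abundant miRNA was the same in all 6 libraries. MiR-181a-5p, a brain and lymphocyte miRNA, had 271352, 306508 and 362625 CPM in cerebellum and 139528, 154939 and 131524 CPM in cortex, and was called higher at 1.14 (SE 0.12, edgeR adjusted p = 4.05e-08), though at 0.45 with library size alone. Of the next in cerebellum, miR-26a-5p averaged 126211 CPM there and 63464 CPM in cortex, and miR-9-5p averaged 123896 CPM and 72882 CPM. Neither was called, at 0.99 and 0.77, and miR-26a-5p passed 2-fold in the fits without cerebellum replicate 1 (1.12) and without cortex replicate 3 (1.04). MiR-101a-3p and miR-101c, from shared reads, were higher by 1.69 (SE 0.17, edgeR adjusted p = 2.33e-08), which fell just short of 2-fold with library size alone (0.9987 for miR-101c). Let-7f-5p, at 0.49, and miR-30a-5p, at 0.98, were not called. MiR-30a-5p passed 2-fold without cerebellum replicate 1 (1.06), cortex replicate 1 (1.01) or cortex replicate 2 (1.02). Among the most abundant in cortex, miR-22-3p averaged 18838 CPM in cerebellum and 34305 CPM in cortex, at -0.86 and short of 2-fold. MiR-434-3p was at -0.25 and miR-143-3p at -0.0015, with group means of 16833 CPM in cerebellum and 16850.0 CPM in cortex for the second.

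Markers of vessels, glia and immune cells were read against the 41.4% called over all miRNAs. Endothelial and mural miRNAs were called in 0 of 6 tested members by edgeR, with a median of 0.01 and a range of -0.29 to 0.25 on the log2 scale, and summed to 19940 to 25840 CPM in cerebellum and 20350 to 23980 CPM in cortex. Their most abundant members were miR-143-3p of smooth muscle and pericytes and miR-126a-5p of endothelium, the second at 0.02 (SE 0.12). Of 5 oligodendrocyte miRNAs, miR-219a-1-3p was higher, at 1.20 and under 5.1 CPM. The abundant miR-338-3p and miR-219a-2-3p, which drive myelinating differentiation, were at 0.38 and 0.39, and turned to -0.31 and -0.30 with library size alone. Of 7 microglia and leukocyte names 1 was higher and 2 were lower, a share near that background. MiR-146a-5p, an inhibitor of innate immune signalling, was lower. It had 34.1, 36.1 and 54.5 CPM in cerebellum and 84.9, 127 and 105 CPM in cortex (-1.35, SE 0.32, edgeR adjusted p = 0.00117). MiR-142a-5p was lower too (-1.25), miR-155-5p was higher (1.11), and with upper quartile factors neither of the lower ones reached 2-fold, while with library size alone 3 of the 7 were lower. Summed levels of that list were 779 to 890 CPM in cerebellum and 833 to 869 CPM in cortex.

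**Figure D3:**
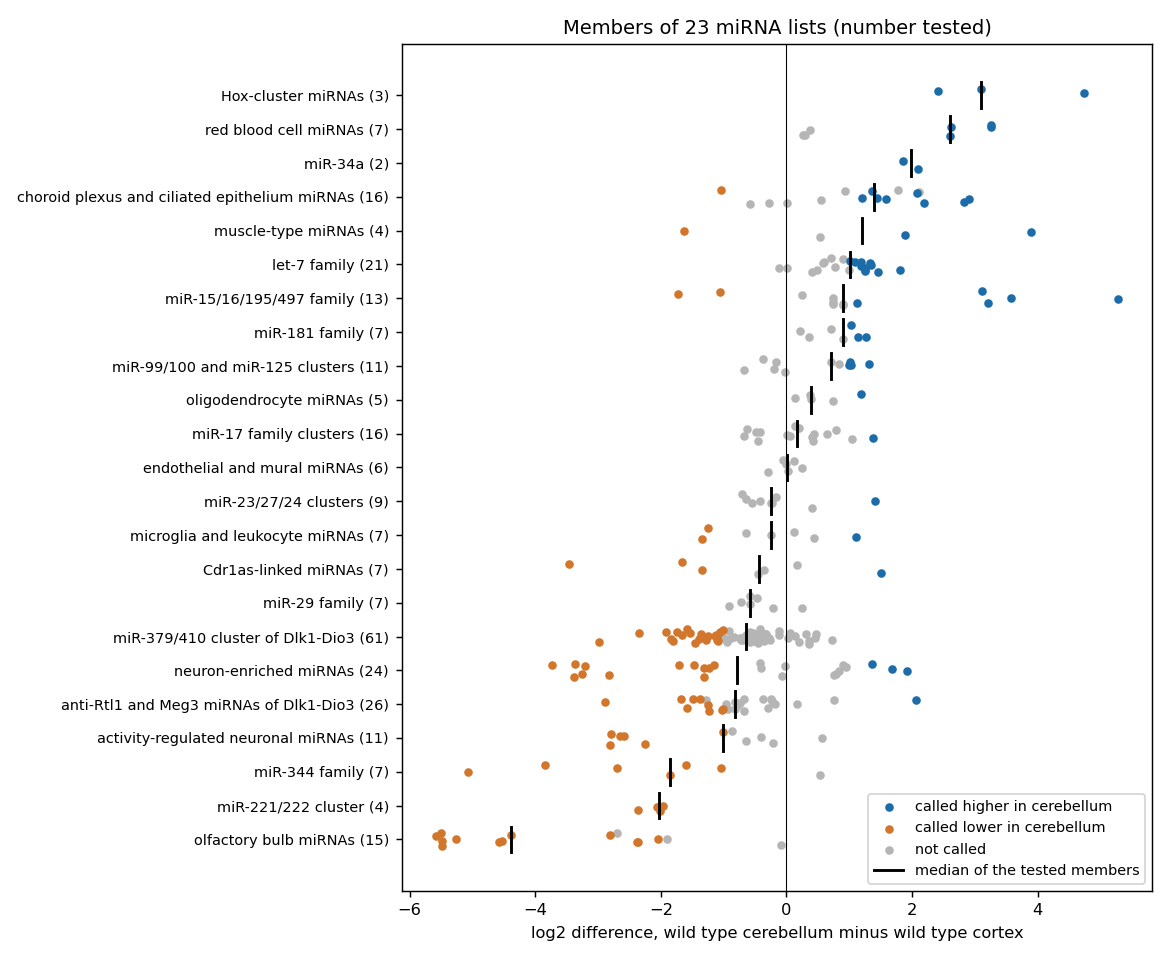
Log2 difference between wild type cerebellum and wild type cortex (x axis) for each tested member of 23 miRNA lists (rows, with the number tested), coloured by call, with a black bar at the median of each list. The Hox-cluster members lie right of 0 and those of the miR-221 and miR-222 cluster lie left of it, while the neuron-enriched list spans -3.74 to 1.92.

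The imprinted Dlk1-Dio3 region on chromosome 12, which holds a long miRNA cluster expressed from the maternal chromosome, held lower calls in cerebellum and nearly no higher ones. Of 61 tested members of the miR-379/410 cluster, 21 were lower and none higher at 2-fold, against 21.5% lower over all miRNAs, and the median was -0.64. With adjusted p alone 39 were lower and 3 higher. With upper quartile factors 11 were lower, 1 was higher and the median was -0.26, and with library size alone 46 were lower and the median was -1.33. MiR-381-3p, its most abundant member in cerebellum, was not called at 0.73, with 8298, 9735 and 9576 CPM in cerebellum and 5462, 6063 and 5107 CPM in cortex. The widest difference was that of miR-409-5p, with 23.2, 8.02 and 5.10 CPM in cerebellum and 108, 81.2 and 94.6 CPM in cortex (-2.98, SE 0.60, edgeR adjusted p = 0.000214). Of 26 names of the neighbouring anti-Rtl1 and Meg3 transcripts, 9 were lower, and the 1 higher was miR-127-3p. With upper quartile factors 4 of these were lower and 2 higher, and with library size alone 18 were lower and 1 higher. Of 37 groups of precursors within 10 kb of each other on the same strand, that around miR-127 was the only 1 with calls in both directions.

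Several large families with roles in growth and differentiation held higher calls, against 19.9% higher over all miRNAs. Of 21 let-7 names, which promote differentiation, 11 were higher and none lower, with a median of 1.01 on the TMM scale, but with library size alone 1 was higher at a median of 0.31. Let-7c-5p, its most abundant member after let-7f-5p, had 17596, 20215 and 21531 CPM in cerebellum and 11918, 9587 and 10211 CPM in cortex, short of 2-fold at 0.90. The widest difference was in let-7a-2-3p (1.81), at under 8 CPM. Of 7 miR-181 names 3 were higher, and of 11 names of the miR-99/100 and miR-125 clusters 4 were higher; with library size alone neither list had a member higher. In the miR-17 family clusters, which promote proliferation, 1 of 16 was higher. That was miR-18a-3p, at 0.808, 1.36 and 1.37 CPM in cerebellum and 0.283, 0.449 and 0.620 CPM in cortex. Its edgeR adjusted p of 0.0409 went to between 0.088 and 0.123 in 4 of the fits without 1 library. With library size alone 5 of the 16 were lower and none higher. The miR-23/27/24 clusters had 1 of 9 higher, miR-24-1-5p, but 4 lower and none higher with library size alone. The miR-29 family, which rises as neurons mature, had 0 of 7 called by edgeR at 2-fold, with 4 lower by adjusted p alone and 5 lower at 2-fold with library size alone.

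MiRNAs tied to Cdr1as, the circular RNA that binds miR-7 and is cut through miR-671, were compared here in mice with the locus intact. Of 7 tested names 3 were lower and 1 higher, against 21.5% lower and 19.9% higher over all miRNAs. So few names do not set the list apart from those shares. With upper quartile factors 2 were lower, and with library size alone 5. MiR-7a-5p had 38.5, 34.3 and 41.03 CPM in cerebellum and 105, 110.4 and 72.9 CPM in cortex, and was lower, at -1.34 (SE 0.24, edgeR adjusted p = 6.37e-05), and short of 2-fold at -0.96 with upper quartile factors. MiR-7b-5p, which shares its seed and most of its sequence so that reads can be exchanged, had 6.46, 8.36 and 6.09 CPM in cerebellum and 23.2, 26.7 and 15.97 CPM in cortex (-1.65, SE 0.26, edgeR adjusted p = 1.1e-05). Both pairs of groups were separate. MiR-671-5p, at 11.4, 11.7 and 10.3 CPM in cerebellum and 12.7, 14.8 and 15.5 CPM in cortex, was not called (-0.36, SE 0.16).

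MiRNAs with the same seed did not always differ in the same direction. Of 37 seed families with at least 2 members at a mean of 10 CPM or more, 28 held a call, 3 held calls in both directions and 7 spanned at least 2 log2 units. The widest span was that of the seed AGCAGCA printed above, from -1.72 for miR-322-5p to 3.58 for miR-195a-5p. MiR-322-5p, from a cluster on chromosome X, had 26.4, 24.2 and 22.01 CPM in cerebellum and 78.9, 68.6 and 92.2 CPM in cortex (SE 0.13, edgeR adjusted p = 2.65e-10). MiR-16-5p, by far the most abundant of the 6, had 14396, 16583 and 16123 CPM in cerebellum and 7376, 7611 and 10244 CPM in cortex, and was not called at 0.90 (SE 0.11), though it passed 2-fold without cortex replicate 3, at 1.07. The wider list of this family, 3p arms included, had 5 of 13 members higher and 2 lower. Over all miRNAs 19.9% were higher and 21.5% lower. With upper quartile factors 10 members of the list were higher and 1 was lower. Added up, miRNAs with this seed had 18896, 21852 and 20390 CPM in cerebellum and 8149, 8297 and 11136 CPM in cortex. Other mature miRNAs of the chromosome X cluster of miR-322 followed it, with 6 of 7 called lower, although miR-322-3p, miR-542-3p and miR-450b-5p lay close to 2-fold and were not called in the fit of the 6 libraries alone. The seed AGGAGCU was carried by miR-708-5p, lower as given above, and by miR-28a-5p, from an intron of Lpp. MiR-28a-5p had 179, 213 and 211 CPM in cerebellum and 51.02, 48.96 and 47.3 CPM in cortex (2.03, SE 0.15, edgeR adjusted p = 2.56e-10), and shares reads with miR-28c. For the seed CCCUGAG, miR-125a-5p was higher (1.32, SE 0.15, edgeR adjusted p = 1.42e-07) and miR-351-5p lower (-1.38, SE 0.16, edgeR adjusted p = 2.42e-07), and miR-125b-5p, between them, was not called (-0.38). MiR-351-5p, with 63.5, 47.1 and 66.9 CPM in cerebellum and 164, 146 and 153 CPM in cortex, fell just short of 2-fold with upper quartile factors, and miR-125a-5p fell short at 0.63 with library size alone, so the opposite calls of this seed held under neither of these scalings. The seed of miR-344d-3p was also that of miR-410-3p, which had 4060.4, 3580.0 and 3994 CPM in cerebellum and 6505, 6505 and 8335 CPM in cortex and was not called (-0.88, SE 0.13).

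A mature miRNA made from more than 1 precursor cannot be traced to its locus, but an arm that differs between the precursors can. There were 14 such pairs of tested arms, and in 9 the ratio of the loci did not overlap between the regions, a share no higher than the 70.6% of all miRNA levels that did not overlap. The pairs described were picked after their values were seen, and their ratios were not tested. For miR-7a, whose guide arm was lower in cerebellum, the arm miR-7a-1-3p from the Hnrnpk intron on chromosome 13 was higher, with 51.2, 57.9 and 62.8 CPM in cerebellum and 18.1, 22.1 and 20.5 CPM in cortex (1.5, SE 0.15, edgeR adjusted p = 2.1e-08). Its counterpart miR-7a-2-3p, from chromosome 7, was lower, with 2.42, 0.678 and 0.995 CPM in cerebellum and 18.2, 13.4 and 12.9 CPM in cortex (-3.46, SE 0.32, edgeR adjusted p = 1.02e-08). The log2 ratio of the 2 counts was 4.36, 6.30 and 5.89 in cerebellum and -0.01, 0.72 and 0.67 in cortex, so the chromosome 13 arm held nearly all of these reads in cerebellum, while the 2 arms were nearly equal in 1 cortex library and it was the more abundant in the other two. For miR-218, miR-218-1-3p from Slit2 was lower (-3.25, SE 0.28, edgeR adjusted p = 3.67e-09), while miR-218-2-3p from Slit3 was at -0.03 and the shared miR-218-5p at -0.42, neither called. For miR-129, miR-129-1-3p had 239, 315 and 311 CPM in cerebellum and 109.7, 119 and 108 CPM in cortex, whereas miR-129-2-3p was at -0.07. For miR-24, miR-24-1-5p from chromosome 13 had 17.2, 17.8 and 23.3 CPM in cerebellum and 6.36, 8.98 and 6.36 CPM in cortex, and miR-24-2-5p from chromosome 8 was at -0.43. With library size alone miR-7a-1-3p (0.81), miR-129-1-3p (0.66) and miR-24-1-5p (0.72) stayed higher in value but short of 2-fold. Pairs of let-7a and let-7c are uncertain, since let-7a-1-3p and let-7c-2-3p share their reads.

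**Figure D4:**
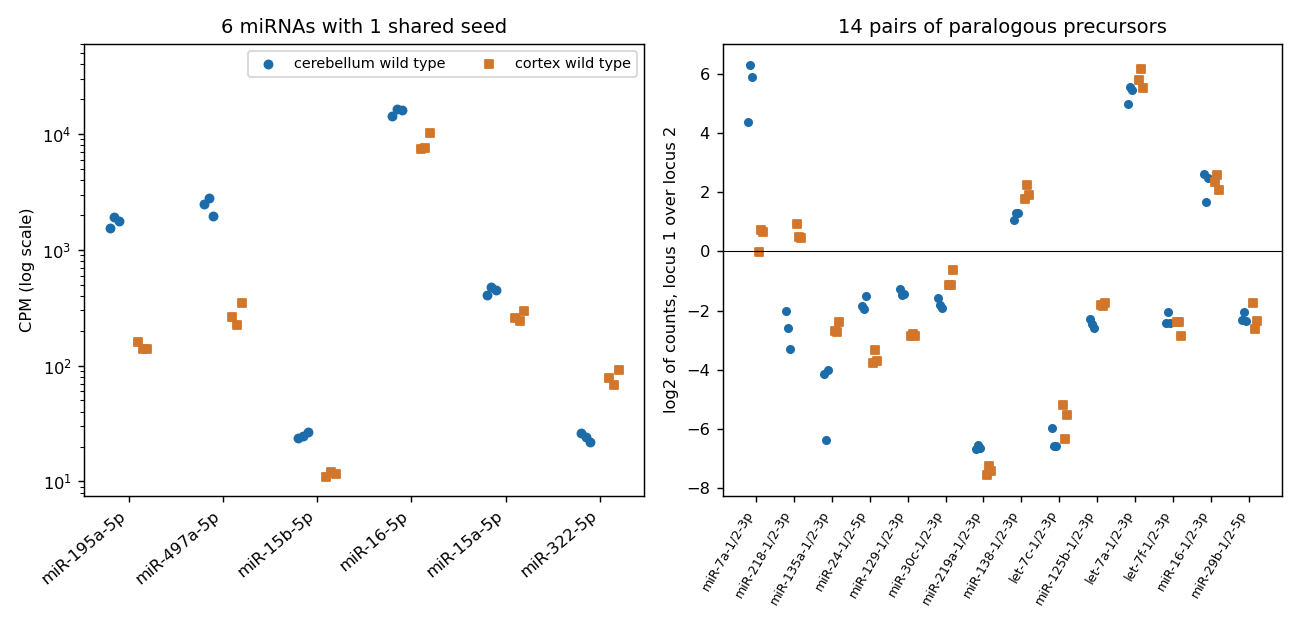
Left, CPM (y axis, log scale) in 3 wild type cerebellum libraries (circles) and 3 wild type cortex libraries (squares) of 6 miRNAs that share a seed, 5 of which lie higher and miR-322-5p lower in cerebellum. Right, log2 ratio of counts (y axis) of the arms that tell the first locus of a pair from the second, by library, for 14 pairs, with the largest gap between the regions for miR-7a.

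The ratio of the 5p arm to the 3p arm of a precursor does not depend on library scaling. Among 198 precursors with both arms tested, 16 ratios were called (8.08%) by limma with Benjamini-Hochberg adjustment at 2-fold, 6 higher and 10 lower in cerebellum. For miR-127 the log2 ratio was -5.01, -4.86 and -5.16 in cerebellum and -2.44, -2.51 and -3.04 in cortex, lower by 2.35 (SE 0.22, limma adjusted p = 5.49e-08). MiR-127-5p itself had 443, 496 and 499 CPM in cerebellum and 602, 633 and 525 CPM in cortex and was not called (-0.29), so the ratio moved with the 3p arm. For miR-376b the ratio was 0.82, 1.16 and 0.88 in cerebellum and -0.56, -0.79 and -0.86 in cortex, a difference of 1.69 (SE 0.15, limma adjusted p = 3.07e-08), which put the 5p arm ahead in cerebellum and the 3p arm ahead in cortex. Here miR-376b-3p was lower (-1.54) and miR-376b-5p was not called (0.14). The leading arm also differed for miR-369, with ratios of -0.82, -0.79 and -0.41 in cerebellum and 0.39, 0.61 and 0.69 in cortex, and for miR-335, with 0.65, 0.84 and 0.47 in cerebellum and -0.29, -0.37 and -0.50 in cortex. Both arms of miR-335 and of miR-369 were lower in cerebellum, to different degrees, and at least 475 counts lay behind each arm in each library. In all the leading arm differed for 15 precursors, of which 5 were called. Lower ratios were called for miR-7b (-1.81), miR-1224 (-1.66) and miR-497a (-2.38), the last resting on as few as 1 count of the 3p arm. The difference of miR-497a was -1.51 without cortex replicate 3 and -1.31 with 5 added to each count. Among higher ratios, miR-378a (1.29) had at least 61 counts per arm. For miR-200c (4.09) the 5p arm had 0 counts in every cerebellum library and at most 1 in any cortex library. Its ratio thus follows the 3p counts and the depth of the libraries, and is no measure of 2 arms. The calls of miR-877 (-1.25) and miR-135b (1.43) were each lost in 3 of the 6 fits without 1 library, at limma adjusted p of 0.0777 to 0.0944 and of 0.0543 to 0.145. That of miR-1298 (1.98) was lost in 5 of the 6, at 0.0591 to 0.219. Of 58 precursors with both arms called in the test of levels, 57 had both in 1 direction, the exception being miR-448, whose 3p call rests on the libraries named above.

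The same contrast in Cdr1as knockout mice used 6 other libraries. Of the 669 miRNAs 268 were called there (40.1%), 133 higher (19.9%) and 135 lower (20.2%). Higher in both genotypes were 113 miRNAs, which are 85.0% of the knockout calls and 85.0% of the wild type calls. Lower in both were 123, which are 91.1% of the knockout calls and 85.4% of the wild type calls. MiR-195a-5p had 1622, 1709 and 1726 CPM in knockout cerebellum and 147, 145 and 151 CPM in knockout cortex, a difference of 3.51, against 3.58 in wild type. MiR-10b-5p differed by 2.88 in knockout and 3.10 in wild type, miR-132-3p by -2.37 and -2.26, and miR-137-3p by -3.30 and -3.36. The 16 called arm ratios all had the same sign in knockout. The test of the difference between genotypes, which shares all 12 libraries with both contrasts, was passed at an adjusted p by 3 miRNAs (0.448%), all of the miR-183 cluster, with 17 at an unadjusted p under 0.05.

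MiR-182-5p, miR-183-5p and miR-96-5p, processed from a single sensory transcript, were higher in cerebellum than in cortex in knockout mice and lower in wild type mice. In knockout mice miR-182-5p had 507, 1069 and 949.6 CPM in cerebellum and 96.3, 302 and 239 CPM in cortex. In wild type mice it had 814, 1021 and 829.6 CPM in cerebellum and 5055, 2712 and 3277 CPM in cortex. The cerebellum libraries of both genotypes thus lay in 1 range, and the cortex libraries lay apart. MiR-183-5p had 37.9, 51.1 and 59.1 CPM in knockout cerebellum and 9.03, 34.3 and 27.7 CPM in knockout cortex, against the wild type values given above. The contrast was 1.99 in knockout and -2.05 in wild type for miR-182-5p, 1.06 and -2.80 for miR-183-5p, and 1.54 and -2.37 for miR-96-5p. Wild type olfactory bulb averaged 210614 CPM of miR-182-5p. MiR-429-3p likewise had lower values in knockout cortex than in wild type cortex, as given above, but it was lower in cerebellum than in cortex in both genotypes (-4.20 in knockout), as was miR-200a-3p (-3.11 in knockout). The part of olfactory bulb RNA in these differences was not tested.

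**Figure D5:**
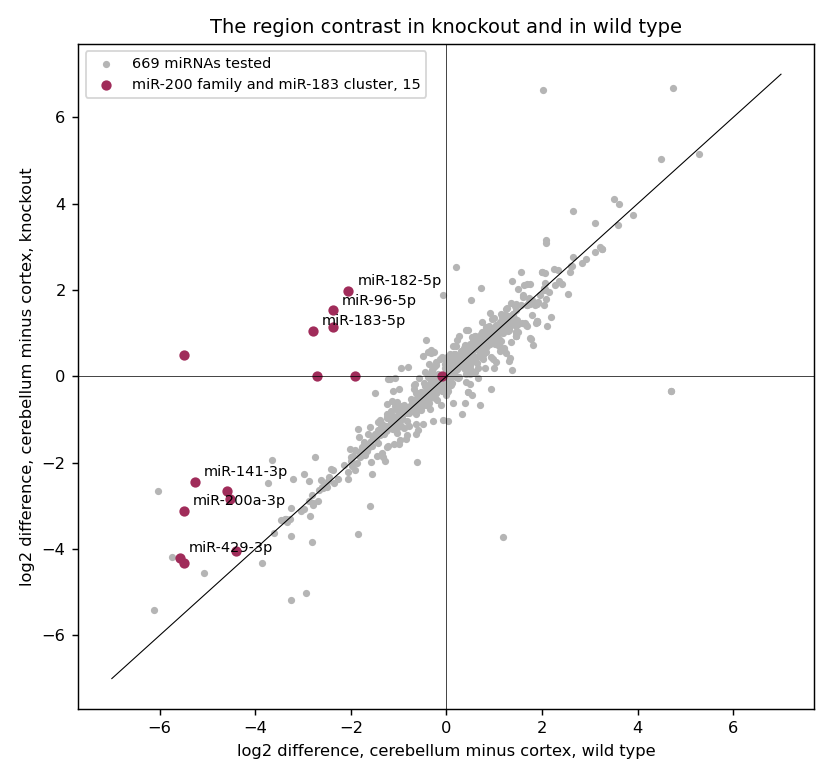
Log2 difference between cerebellum and cortex in knockout mice (y axis) against that in wild type mice (x axis) for 669 miRNAs, with the line of equal values and the 15 tested members of the miR-200 family and miR-183 cluster in red. MiR-182-5p, miR-183-5p and miR-96-5p lie in the upper left quadrant, above 0 in knockout and below 0 in wild type.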

How the data were processed

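Small RNA of dissected brain regions of Cdr1as knockout and wild type C57BL/6 mice was extracted with TRIZOL and sequenced from TruSeq Small RNA libraries, per the labels. The authors deposited 1 table of read counts per library, whole numbers per mature miRNA with no normalization. The build is mm9 per the submitters' processing notes, and no aligner, counter or miRNA annotation was given in the sources used here. Counts of miRNAs with near-identical sequence can be shared or split by that step.

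MiRNAs that passed edgeR's filterByExpr (minimum count 10, minimum total 15) were scaled with TMM factors and fitted by edgeR 4.0.16's quasi-likelihood model in R 4.3.3, with 1 mean for each of 8 groups over 23 libraries. P-values were adjusted by Benjamini-Hochberg over the 669 tested. Arm ratios, as log2 of 5p over 3p counts per precursor, were tested with limma 3.58.1. DESeq2 1.42.0, limma-voom, other scalings, no filter, smaller sets of libraries, a replicate block and leaving out each replicate were alternatives. The model was tested on simulated data.

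The comparison, its members and the miRNA lists were chosen with earlier results of these data known. Named miRNAs were the 12 highest and 12 lowest called ones whose 6 libraries did not overlap and whose mean was at least 100 CPM, the 10 most abundant of each region, examples from each list, the 5 highest and 5 lowest called arm ratios, and the 10 smallest p for the difference between genotypes. MiRNAs were placed in host genes by their precursors in the GENCODE annotation of GRCm38, and no coordinates were carried between builds.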

Additional observations from a re-analysis of the deposited data

Results flagged for a closer look

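The region contrast of 3 miRNAs of the miR-183 cluster differed between the genotypes by a test of the difference itself. For miR-182-5p the log2 contrast of cerebellum over cortex was higher in knockout than in wild type by 4.04 (edgeR adjusted p = 5.99e-05), and the 3 cerebellum libraries lay above the 3 cortex libraries in knockout and below them in wild type. For miR-183-5p the difference was 3.86 (edgeR adjusted p = 5.99e-05), with the same separation of the libraries. For miR-96-5p it was 3.91 (edgeR adjusted p = 0.00895) at no more than 21.2 CPM in any of the 12 libraries. The last was not called by limma-voom (adjusted p = 0.0595) or without knockout cerebellum replicate 3 (edgeR adjusted p = 0.091). The summed level of the miR-200 and miR-183 list, most of it miR-182-5p, was 143 to 446 CPM in knockout cortex and 3689 to 6823 CPM in wild type cortex. Its part in these differences was not tested. The next miRNAs by p, miR-141-5p (5.97), miR-183-3p (3.52) and miR-141-3p (2.82), are of the same list and had edgeR adjusted p of 0.376, 0.376 and 0.507. Groups of 3 libraries are too small for a test of single outlying samples.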

How the results depend on the processing

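With upper quartile factors 200 miRNAs were higher in wild type cerebellum, and with library size alone 51 were higher and 259 lower, with 56 and 227 in knockout mice; the cause was not tested beyond the shift of the median. With adjusted p and no fold minimum 208 were higher. The difference between genotypes was called higher for 7 miRNAs and lower for 1 with no filter on low counts, and higher for 5 by DESeq2. Arm ratios with 5 added to each count gave 14 higher and 19 lower, and at least 50 counts per arm left 5 lower of 94 precursors. Leaving out each replicate in turn gave 3 to 7 higher and 7 to 12 lower arm ratios, 121 to 132 higher and 139 to 143 lower miRNAs in wild type, 116 to 134 and 121 to 129 in knockout, and 2 to 4 for the difference between genotypes. The 3 higher arm ratios were those without cortex replicate 3.

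Of 163 miRNAs recomputed under each setting, signs turned for 3 with upper quartile factors and for 9 with library size alone. The 3 were miR-434-3p (0.13), miR-125b-5p (0.0045) and miR-671-5p (0.012). The 9 were let-7f-5p (-0.21), miR-338-3p (-0.31), miR-219a-2-3p (-0.30), miR-25-3p (-0.24), miR-181b-5p (-0.33), miR-344-3p (-0.16), miR-301a-3p (-0.25), miR-130a-3p (-0.090) and miR-24-3p (-0.28), none of them past 2-fold on the TMM scale. Relative log expression (RLE) factors in the edgeR fit kept 163 of 163 on their side of the threshold, and the DESeq2 test 161. Same-numbered libraries correlated at 0.138, 0.00853 and 0.212 in their deviations from the group means, and differently numbered ones at -0.229 to 0.153. With 3 libraries per group these values cannot decide whether the numbers mark pairs. The labels do not say that they do, and the numbers were not taken as pairs. The fit of the 6 libraries alone gave 124 higher and 119 lower miRNAs, and with the replicate block 126 and 119; arm ratios with the block gave 5 higher and 11 lower. MiRNAs under about 1 CPM rest on few counts, since 3 counts came to between 0.339 and 0.404 CPM in the cerebellum libraries.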
